A study of Mus musculus with 3 samples.

Results

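The interferon regulatory factors are a family of transcription factors that share an N-terminal DNA-binding domain with a conserved repeat of tryptophans. The 8 genes described here are Irf1, Irf2, Irf3, Irf4, Irf5, Irf7, Irf8 and Irf9, taken by symbol from the 50600 genes counted in mouse T-helper 1 (Th1) cells, the CD4 helper T cells known for making interferon-gamma. All 8 were found in the tables.

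The libraries were made from primary cells of the C57BL/6NJ strain that the labels call Th1, at an age and sex that the labels do not give. The 3 libraries, biological replicates 1, 2 and 3, carry 1 donor entry and form a single group with no agent, genotype or other group to set against them. Nothing in the labels says that they came from separate animals, so p-values refer to the spread between these samples, which may be technical. The labels name no time point, the file headers name 2 hours, and the linked protocol is one for CD4+ T cell differentiation.

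The factors divide by what activates them. IRF3, IRF5 and IRF7 lie latent in the cytoplasm until kinases below pattern recognition receptors phosphorylate them. IRF9 joins STAT proteins below the type I interferon receptor, IRF1 is made on interferon-gamma signals, and IRF2 binds the same DNA element and can act against IRF1. IRF4 is induced by antigen receptor signals in lymphocytes, where it binds DNA with BATF and JUN proteins. IRF8, its closest relative, is best known from myeloid cells and B cells.

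Levels are given as TPM, the count of a gene per exon base scaled to the same total in each library, with the SD over n = 3 libraries. A gene is called detected when it had over 3 counts and at least 1 TPM in every library. Library totals ran from 2950658 to 4442901 counts, so that 3 counts of a 1 kb transcript equal 1.37 to 1.77 TPM. All 8 pan T cell markers were detected, while Ifng had 1, 2 and 0 counts in replicates 1, 2 and 3. The counts were made with strand setting 1. mt-Nd6, the only mitochondrial mRNA of its strand, stood at 23326 to 36098 TPM, against list medians of 296 to 600 TPM for the 12 mRNAs of the other mitochondrial strand. Of these 12, mt-Co2, mt-Atp6, mt-Co3 and mt-Nd4l, which nearly every cell uses, had no count in any library, and mt-Nd3 and mt-Atp8 had at most 2. Whether the setting matched the library was not tested. With a setting opposite to the library, a gene's own RNA would not be counted for it, and an opposed gene would receive RNA of the gene facing it, so the levels and their order hold for counts made under this setting. A gene is called opposed when its exons overlap those of an opposite-strand gene, and unopposed when nothing annotated on that strand falls anywhere within it. Opposed genes held 55.1%, 69.1% and 67.3% of the counts in replicates 1, 2 and 3.

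Several of these genes are themselves interferon-responsive, and the DNA elements involved can be shown in their promoters. The motifs searched, on both strands, were the core of the interferon-stimulated response element, GAAA repeated after any 2 bases, to which the family binds, and the core of the gamma-activated site, TTCNNNGAA, to which STAT dimers bind. All 8 genes matched RefSeq promoter windows, 11 in all, and the 250 bases before the start were searched. The response element core was found in 1 of the 11 windows, that of Irf2, and in 2.98% of 32851 windows of all genes. The gamma-activated core was found in 3 of the 11 windows, those of Irf1, Irf2 and Irf8, and in 7.02% of all windows. These 3 sequences, on the plus strand of build GRCm38.p6, are shown because they hold every match, and capitals mark the matches, which do not overlap each other.
Irf1 promoter, chr11:53769764-53770013: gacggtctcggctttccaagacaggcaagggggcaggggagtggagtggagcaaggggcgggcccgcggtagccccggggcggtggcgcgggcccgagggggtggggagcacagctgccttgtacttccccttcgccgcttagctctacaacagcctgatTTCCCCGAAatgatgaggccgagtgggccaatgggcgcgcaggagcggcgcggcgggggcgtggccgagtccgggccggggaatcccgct
Irf2 promoter, chr8:46739495-46739744: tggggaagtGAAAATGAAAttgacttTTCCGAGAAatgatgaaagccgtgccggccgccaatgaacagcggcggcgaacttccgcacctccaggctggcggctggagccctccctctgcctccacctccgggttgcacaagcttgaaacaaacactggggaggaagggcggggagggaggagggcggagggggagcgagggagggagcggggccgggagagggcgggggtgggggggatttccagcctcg
Irf8 promoter, chr8:120736108-120736357: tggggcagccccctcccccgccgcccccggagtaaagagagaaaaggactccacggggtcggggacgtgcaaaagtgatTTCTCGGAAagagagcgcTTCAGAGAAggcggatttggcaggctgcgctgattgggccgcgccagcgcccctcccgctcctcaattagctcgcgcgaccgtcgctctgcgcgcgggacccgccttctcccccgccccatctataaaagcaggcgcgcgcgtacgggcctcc
In Irf2 the response element core begins at position -241 and the gamma-activated core at -224 from the start, in Irf8 both matches are gamma-activated cores, at -171 and -153, and in Irf1 the match begins at -90. A match is a description of the sequence, and no measure of binding was made in these libraries.

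All 8 Irf genes were detected, where 38.3% of 21764 protein-coding genes were. They were far from equal in level. Irf5 and Irf4 together made up 83.0%, 87.5% and 88.1% of the family's summed TPM in replicates 1, 2 and 3, and the family sum was 638 ± 73.7 TPM (SD, n = 3). The family median was 12.5 ± 5.30 TPM, against a mean of 0.252 TPM for the library medians of all protein-coding genes. In these bulk libraries, fewer cells with a transcript and less of it per cell cannot be told apart.

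**Figure D1:**
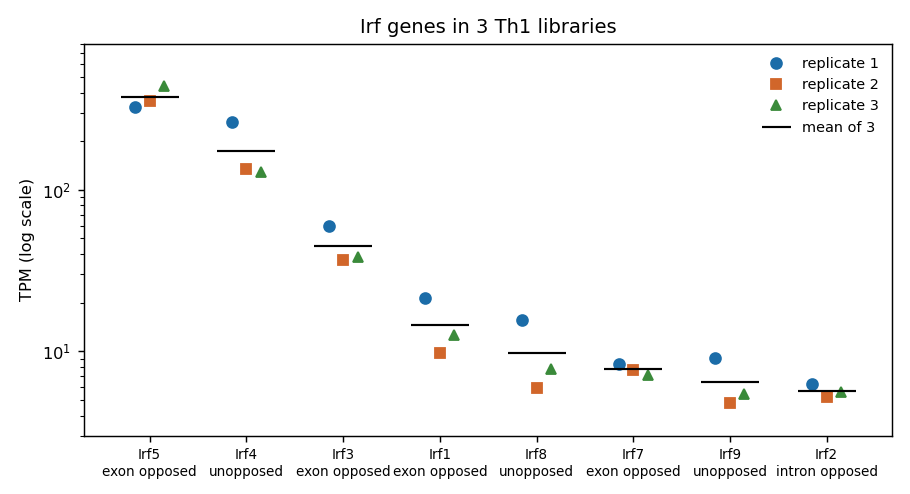
Level of each Irf gene in TPM on a log axis, ordered by the mean of 3 libraries (black bar), with 1 symbol per replicate and the class of overlap with the other strand under each name. In TPM, Irf5 was lowest in replicate 1, at 325 TPM, while the other 7 genes were highest there. In counts scaled to library size alone, Irf2 and Irf7 were also lowest there.

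Irf5, the factor that transmits Toll-like receptor signals in myeloid and B cells, had the highest level of the family. It stood at 325, 357 and 441 TPM in replicates 1, 2 and 3, a mean of 374 ± 60.2 TPM, from 2064, 1943 and 2176 counts. This placed it above 99.3% of protein-coding genes. As an opposed gene, its level and its first place rest on the strand setting, which was not tested. Irf5 (ENSMUSG00000029771.12, mm10 chromosome 6, 29526625 to 29541871, plus strand) is opposed at its 3′ end by Tnpo3, the gene of a nuclear import receptor, on the minus strand. Their exons share 411 bases in 2 blocks, 14.1% of the exon length of Irf5, and 123 of these bases are coding in Irf5 while all 411 lie beyond the coding sequence of Tnpo3, on the side of its 3′ UTR.

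Irf4 was the second highest and has no gene opposite. It had 262, 134 and 129 TPM, a mean of 175 ± 75.4 TPM, from 2702, 1183 and 1032 counts. Replicate 1 lay above the other two libraries, which were close to each other. TPM computed over unopposed genes alone shrinks the total and leaves only Irf4, Irf8 and Irf9 of the family. Their means were then 849.9, 46.3 and 31.6 TPM. The order of these genes could not change, since it held in every library and each library was rescaled by a single factor. Irf4 (ENSMUSG00000021356.9, chromosome 13, 30749226 to 30766927) stood above 98.3% of protein-coding genes. Under the same setting its relative Irf8 (ENSMUSG00000041515.9, chromosome 8, 120736358 to 120756694), also unopposed, had 15.7, 5.89 and 7.76 TPM, a mean of 9.78 ± 5.19 TPM, from 242, 78 and 93 counts. Irf8 too was highest in replicate 1.

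Irf3, the factor below RIG-I-like receptors and STING, came next at 59.6, 36.7 and 38.2 TPM, a mean of 44.8 ± 12.8 TPM, from 449, 237 and 223 counts. Irf3 (ENSMUSG00000003184.15, chromosome 7, 44997648 to 45002848) shares 88 exon bases with Bcl2l12, which starts within it and runs the other way, so that the 2 genes lie head to head. Irf7, the interferon-inducible factor that amplifies type I interferon production, had 8.35, 7.62 and 7.18 TPM, a mean of 7.72 ± 0.593 TPM. Its 3 libraries were close to each other. The Irf7 gene (ENSMUSG00000025498.15, chromosome 7, 141262706 to 141266481, minus strand) shares 45 bases at its 3′ end with the 3′ end of Phrf1.

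Irf1 had 21.4, 9.79 and 12.6 TPM, a mean of 14.6 ± 6.05 TPM, from 186, 73 and 85 counts. Irf1 (ENSMUSG00000018899.16, chromosome 11, 53770014 to 53778374, plus strand) is opposed inside the gene by Gm17334, annotated as a protein-coding gene with a single exon of 907 bases on the minus strand. The 2 genes share 135 exon bases in 2 blocks, of which the larger is coding in both. That block, which encodes part of the DNA-binding domain of Irf1, is shown on the strand of Irf1 because a read from it can be given to either gene by its strand alone. The sequence is from GENCODE transcripts of the same assembly as the files.
Irf1 exon shared with Gm17334, chr11:53772839-53772938: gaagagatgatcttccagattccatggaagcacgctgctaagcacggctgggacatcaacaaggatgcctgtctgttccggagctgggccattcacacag
The stretch is 100 bases long.

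Irf2 and Irf9 were the lowest members. Irf2 (ENSMUSG00000031627.9, chromosome 8, 46739732 to 46847458) had 6.30, 5.19 and 5.57 TPM, a mean of 5.69 ± 0.565 TPM, and 3 small genes, Gm45479, Gm31172 and Gm45481, lie in its introns on the other strand. These had at most 15 counts in a library. Irf9 (ENSMUSG00000002325.14, chromosome 14, 55603571 to 55610030) had 9.08, 4.75 and 5.47 TPM, a mean of 6.43 ± 2.32 TPM, and is unopposed. It shares 123 exon bases with its upstream neighbour Rnf31 on the same strand, and reads there can fall to either gene.

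Neighbours in this order were compared by the log2 ratio of their TPM within each library. The order came from the mean TPM of these same libraries, so the direction of each pair was largely set in advance. A pair was taken to differ beyond its spread when the ratio had 1 sign in all 3 libraries and its mean exceeded 2 SD. This was so for 3 of 7 pairs. Irf4 exceeded Irf3 by 1.92 ± 0.20 on the log2 scale (SD, n = 3), Irf3 exceeded Irf1 by 1.65 ± 0.22, and Irf1 exceeded Irf8 by 0.62 ± 0.15. The exact permutation test by sign flips, two-sided, gave p = 0.25 for each, the smallest that 3 libraries allow, and an adjusted p of 0.438 over the 7 pairs. Without length correction Irf1 lay below Irf8, at -0.20, and without replicate 1 the number of pairs beyond their spread was 5.

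Irf5 exceeded Irf4 in every library, but by amounts that ranged from 0.31 in replicate 1 to 1.77 in replicate 3, a mean of 1.17 ± 0.76 on the log2 scale (exact permutation p = 0.25). The counts of the 3 libraries together gave a ratio of 2.04 per exon base (95% interval 1.97 to 2.12). In raw counts Irf4 was above Irf5 in replicate 1 and below it in the others. Neighbours among Irf8, Irf7, Irf9 and Irf2 could not be ordered, since the sign of each ratio differed between libraries, with means of 0.22 ± 0.64, 0.31 ± 0.40 and 0.12 ± 0.35. Genes farther apart in the order were not tested, though Irf8 lay above Irf9 and Irf2, and Irf7 above Irf2, in every library. Intervals here cover counting error only, since read pairs without molecular identifiers are not independent molecules.

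**Figure D2:**
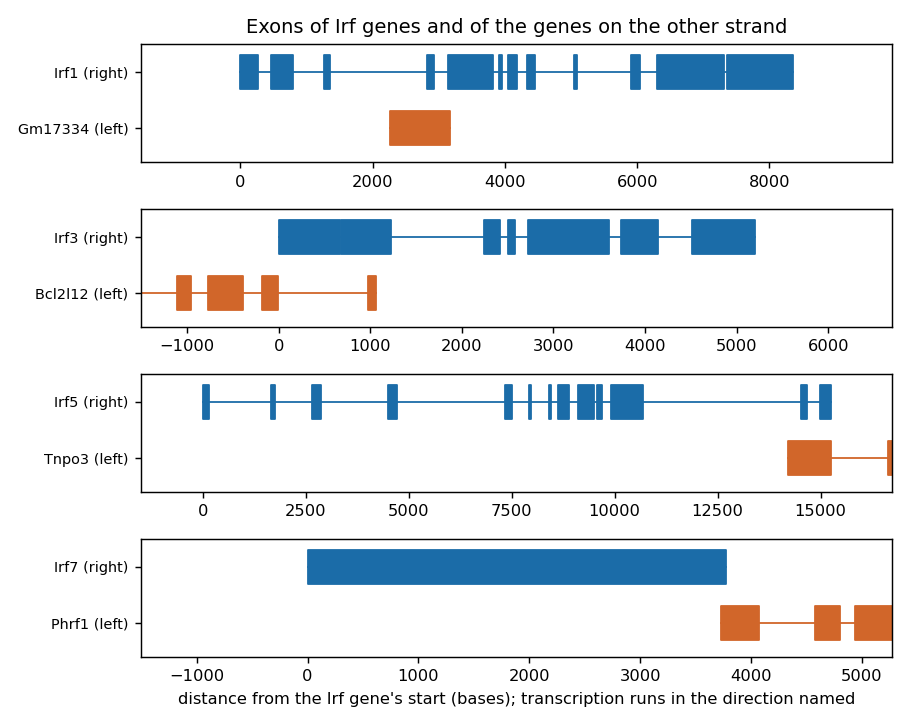
Exons (boxes) of the 4 opposed Irf genes and of the genes on the other strand, by distance in bases from the start of the Irf gene, with the direction of transcription beside each name. Gm17334 faces the inside of Irf1, Bcl2l12 overlaps the start of Irf3, and Tnpo3 and Phrf1 overlap the ends of Irf5 and Irf7.

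The level of an opposed Irf gene was next set against that of the gene facing it. Of the 4 opposed Irf genes, 3 lay below their partners. Gm17334 had 219, 229 and 214 TPM, a mean of 220 ± 7.58 TPM, and Irf1 lay below it by a log2 ratio of -3.99 ± 0.59 (SD, n = 3). Bcl2l12, a gene of the BCL2 family by sequence, had 153, 209 and 175 TPM, a mean of 179 ± 28.3 TPM, and the log2 ratio of Irf3 to it was -2.02 ± 0.59. Phrf1, the gene of a RING finger ubiquitin ligase, had 29.0 ± 9.43 TPM, and the log2 ratio of Irf7 to it was -1.85 ± 0.36.

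Irf5 was the exception. Tnpo3 had 15.7, 9.16 and 9.31 TPM, a mean of 11.4 ± 3.71 TPM, and Irf5 exceeded it by 5.06 ± 0.62 on the log2 scale, or 31.6-fold per exon base in summed counts (95% interval 29.5 to 34.0). All 4 ratios kept their sign in every library, and the exact permutation test by sign flips gave p = 0.25 for each (0.25 also when adjusted over the 4), the smallest possible. Tnpo3 thus lay far below Irf5, and the small gene Gm17334 far above Irf1.

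**Figure D3:**
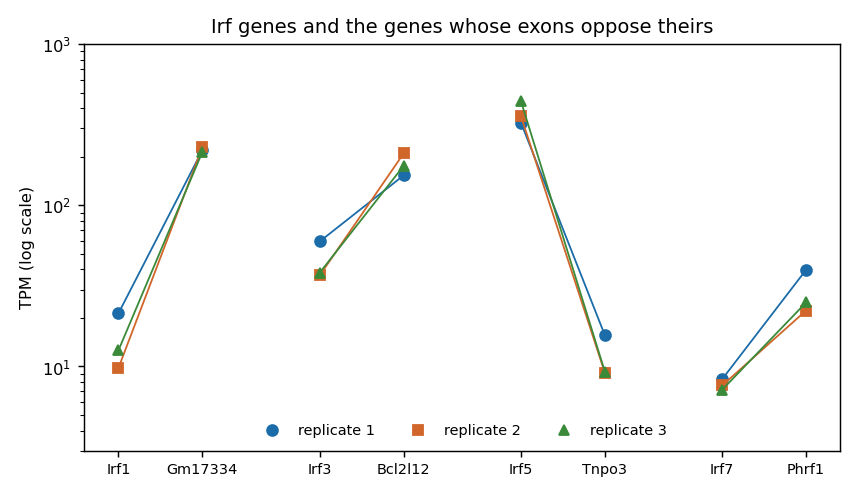
TPM on a log axis of each opposed Irf gene and of the gene facing it, joined by a line within each library. The Irf gene is lower than its partner for Irf1, Irf3 and Irf7 and higher for Irf5, in all 3 replicates.

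Among the 8 members, Irf5 also had the lowest level in replicate 1 relative to the other libraries. Its CPM, a library-size-scaled count with no length correction, was 465, 622 and 737 in replicates 1, 2 and 3, so that replicate 1 had 0.683 of the mean of the other libraries. For Irf4 the same ratio was 1.67, from CPM of 608, 379 and 350, and for Irf8 it was 1.93. Irf1, Irf9 and Irf3 had 1.60, 1.49 and 1.33, and Irf2 and Irf7 had 0.982 and 0.945. With CPM scaled by the TMM factors of edgeR, Irf2 had 19.8, 25.5 and 25.9 in replicates 1, 2 and 3. Irf7 had 13.4, 19.1 and 17.0 by the same scaling. A low replicate 1 was thus not particular to Irf5.

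The ratio moved with the class of overlap across the whole table. Over 4125 unopposed protein-coding genes with at least 60 counts in all, its median was 1.52, and from the 10th to the 90th percentile it ran from 1.03 to 2.06. Over 2779 opposed genes the median was 1.22, with 0.626 to 1.80 between the same percentiles. Irf5 lay at percentile 3.37 of the unopposed and 13.5 of the opposed genes. Irf7 and Irf2 lay at percentiles 7.42 and 8.46 of the unopposed genes, and at 33.1 and 35.3 of the opposed. All 3 were thus below the 10th percentile of the unopposed genes. Irf4 lay at percentile 66.5 of the unopposed genes, within their middle range. Among the facing genes, Tnpo3 and Phrf1 had ratios of 1.42 and 1.41, and Gm17334 and Bcl2l12 had 0.830 and 0.666. In 3 of the 4 pairs the gene with the higher TPM had the lower ratio, the exception being Irf7 with Phrf1. The same was not counted over other opposed pairs, and 4 pairs are too few to relate level and ratio. The part that strand assignment has in these levels was not tested.

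**Figure D4:**
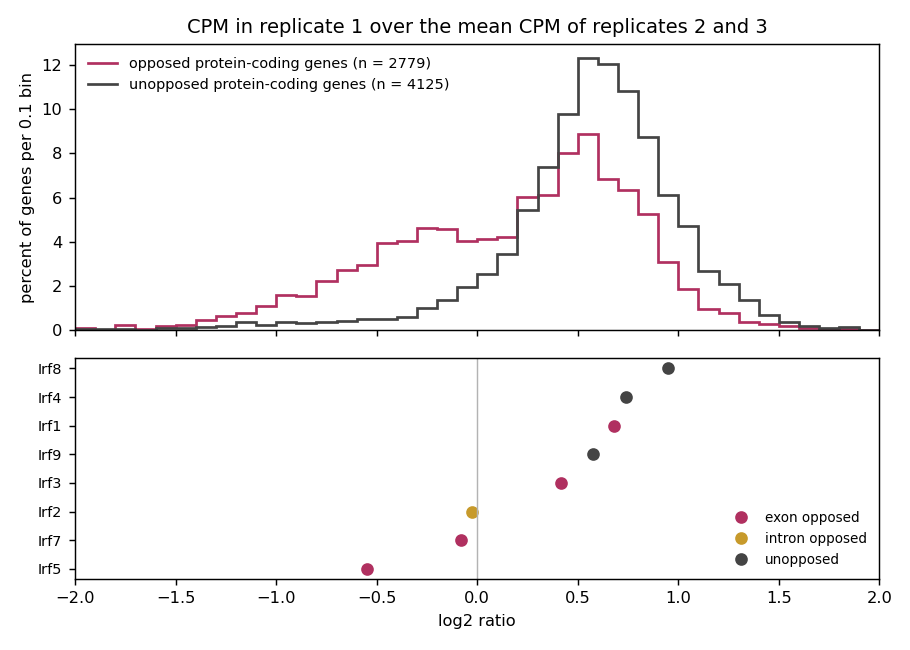
Distribution over protein-coding genes (top) and values of the Irf genes (bottom) of the log2 ratio of CPM in replicate 1 to the mean CPM of replicates 2 and 3. Unopposed genes have a single peak above 0 while opposed genes also spread below 0, where Irf5 lies. Irf7 and Irf2 lie just below 0. On the linear scale Irf5 has 0.683 and Irf8 1.93.

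The 3 protein-coding genes nearest to Irf5 in level and pattern, by Euclidean distance in log2(TPM + 0.1) over the 3 libraries, were AY074887 at 382 ± 58.1 TPM (distance 0.0587), the autophagy protease gene Atg4d at 370 ± 50.0 TPM (0.112) and Serinc4 at 392 ± 50.3 TPM (0.146). All 3 are opposed by other genes. Their ratios of replicate 1 to the others were 0.696, 0.673 and 0.697. Values near that of Irf5 follow from choosing genes alike over these same libraries. The proteasome gene Psma4, opposite AY074887, had 83.9 ± 33.2 TPM, Kri1, opposite Atg4d, 127, 107 and 136 TPM in the 3 libraries, and Serf2 and Hypk, opposite Serinc4, 23.0 ± 9.67 and 1.79 ± 0.623 TPM. With only 3 libraries, likeness of pattern says little beyond likeness of level.

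Spread between replicates was also tested over all genes with enough counts, a filter that all 8 Irf genes passed. No Irf gene varied beyond the dispersion trend of genes of its abundance (edgeR deviance test, Benjamini-Hochberg adjusted p of 1.00 for each), none did at an unadjusted p under 0.05, and none was a dispersion outlier in DESeq2. Across all 9469 genes tested, 24 passed, a share of 0.253%, and 610 had an unadjusted p under 0.05. The number was 3 without replicate 2 and 8 without replicate 3. Beyond counting noise, 3 Irf genes varied, against 59.6% of all genes tested, or 5642 genes (2476 without replicate 1). These were Irf5 (chi-square test with edgeR library sizes, adjusted p = 1.19e-125), Irf4 (9.98e-20) and Irf8 (0.000189). Without replicate 1, Irf4 and Irf8 no longer passed (adjusted p of 0.143 and 0.288 in the same edgeR-scaled test) and Irf5 did (1.23e-06). With total counts in place of TMM scaling, Irf1, Irf3 and Irf9 passed as well. The first 3 were the members with the most counts, save that Irf3, with 909 counts in all, did not pass.

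Genes around the family, cell type markers and mitochondrial mRNAs made up 18 further lists, in which 84 of 162 entries were detected. Ifng is entered in both the interferon and the Th1 list. By the same rule 38.3% of all protein-coding genes were detected, and the counts for each list below stand beside that share. Partners of IRF4 were abundant in part. In the BATF and AP-1 list 5 of 6 genes were detected, with a median of 12.1 ± 4.96 TPM. Junb had 312 ± 109 TPM and is opposed by Prdx2 at 6.78 ± 2.60 TPM. Jund had 171 ± 69.9 TPM and is opposed by Gm11175 at 7715.5 ± 1505 TPM, far above Jund itself. Batf, the partner of IRF4 in T cells and the only unopposed gene of these, had 13.7 ± 6.09 TPM from 36, 12 and 28 counts. Batf3, which pairs with IRF8 in dendritic cells, had no count. In the ETS and zinc finger list the lymphoid factor Ikzf1 had 118 ± 50.0 TPM and Ikzf3 7.71 ± 2.00 TPM, while Spi1 and Spib, the ETS partners of IRF4 and IRF8 in B and myeloid cells, had no count. The corepressors that bind IRF2 were all detected, Irf2bp2 at 25.1 ± 9.16 TPM, Irf2bpl at 11.3 ± 1.79 TPM and Irf2bp1 at 9.13 ± 2.54 TPM. Irf2bp2 shares 1039 exon bases with Gm26759 on the other strand, which had 529 ± 28.6 TPM.

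Genes that IRF4 controls together with BATF in T cells were near the floor. Of 6 such genes 1 was detected, the cytokine gene Il21 at 2.30 ± 0.727 TPM, opposed by Gm12534 at 21.6 ± 7.42 TPM. Prdm1, the gene of the terminal differentiation factor BLIMP-1, had 0.662 ± 0.390 TPM, and Il17a and Il23r had no count. Of 4 Th1 genes with IRF1 input, Il12rb2, the signalling chain of the interleukin-12 receptor, had 11.9 ± 3.97 TPM and is opposed by Serbp1 at 81.8 ± 25.9 TPM. Tbx21, the Th1 master regulator, had 2.53 ± 0.997 TPM. Ifng, with at most 2 counts in a library, and Il12rb1, at 0.198 ± 0.175 TPM, were not detected.

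Most genes of the receptors, kinases and STATs through which interferons reach IRF1 and IRF9 were detected under this strand setting. Of 10 genes 9 were detected, with a median of 15.5 ± 8.71 TPM. The kinase gene Jak1 had 128 ± 47.8 TPM and is opposed by Raver2 at 4.44 ± 0.999 TPM. Jak2, which is unopposed, had 100.4 ± 37.1 TPM. Ifngr1 and Ifngr2, both chains of the interferon-gamma receptor and both unopposed, had 28.2 ± 13.5 and 27.6 ± 14.1 TPM. Stat2, whose protein binds IRF9 in the complex ISGF3, had 3.91 ± 1.45 TPM, beside 6.43 TPM for Irf9 itself. Ifnlr1, of the receptor for type III interferons, had no count.

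Interferon transcripts themselves were not detected for any of 13 genes, and 11 had no count in any library, among them Ifnb1, Ifna1, Ifna2 and Ifna4. Ifnk was the highest at 0, 5 and 2 counts. A count of 0 allows a level of 3 counts, which is 0.675 CPM in replicate 1, 0.960 in replicate 2 and 1.02 in replicate 3. These limits cover counting error only, and since several mitochondrial mRNAs also had no count, a count of 0 here is not read as absence of the transcript.

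Upstream of IRF3, IRF5 and IRF7, 15 of 19 kinases, adaptors and sensors were detected, with a median of 9.23 ± 2.91 TPM. The kinase genes Irak4 and Tbk1 had 64.1 ± 7.90 and 31.3 ± 9.69 TPM. The adaptor gene Myd88 had 24.2 ± 7.80 TPM and is opposed by Acaa1a at 110 ± 16.4 TPM. Tbk1, whose kinase phosphorylates IRF3, is unopposed, whereas Irak4 is opposed by Twf1 at 11.4 ± 3.86 TPM and had a ratio of replicate 1 to the others of 0.711, close to that of Irf5. The endosomal receptor genes were the low end of the list, with at most 1 count in a library for Tlr3, at most 4 for Tlr7 and none for Tlr9.

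Target genes of the family fell into a lower and a higher list. Of 26 type I interferon-stimulated genes 9 were detected (34.6%, beside 38.3% of all protein-coding genes), with a median of 0.938 ± 0.517 TPM. Ifi35 had 18.9 ± 11.2 TPM, opposed by Gm11626 at 1131 ± 43.6 TPM, and Bst2, the gene of the virus-tethering protein tetherin, had 13.5 ± 9.47 TPM. Usp18, a brake on the type I receptor, had 10.6 ± 2.24 TPM and is opposed by Gm44148 at 16.8 ± 5.18 TPM. Isg15, of the ubiquitin-like modifier, had 9.01 ± 4.64 TPM. Mx1, Ifi44 and Ifitm3 had no count.

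Of 20 interferon-gamma-induced genes with IRF1 input 15 were detected, with a median of 9.88 ± 3.42 TPM. With unopposed genes alone, 6 of 10 were detected in this list and 5 of 17 in the type I list. No share over all unopposed genes was computed to stand beside these. The list was led by B2m, the light chain of MHC class I, at 2526 ± 1356 TPM. Cd274, the gene of the checkpoint ligand PD-L1, had 154 ± 47.8 TPM, and the feedback inhibitor gene Socs1 61.3 ± 29.7 TPM. Cxcl9, a chemokine gene of myeloid cells, had no count. Many of these genes are also expressed without interferon, and no other cell type or condition was analysed here to set them against.

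**Figure D5:**
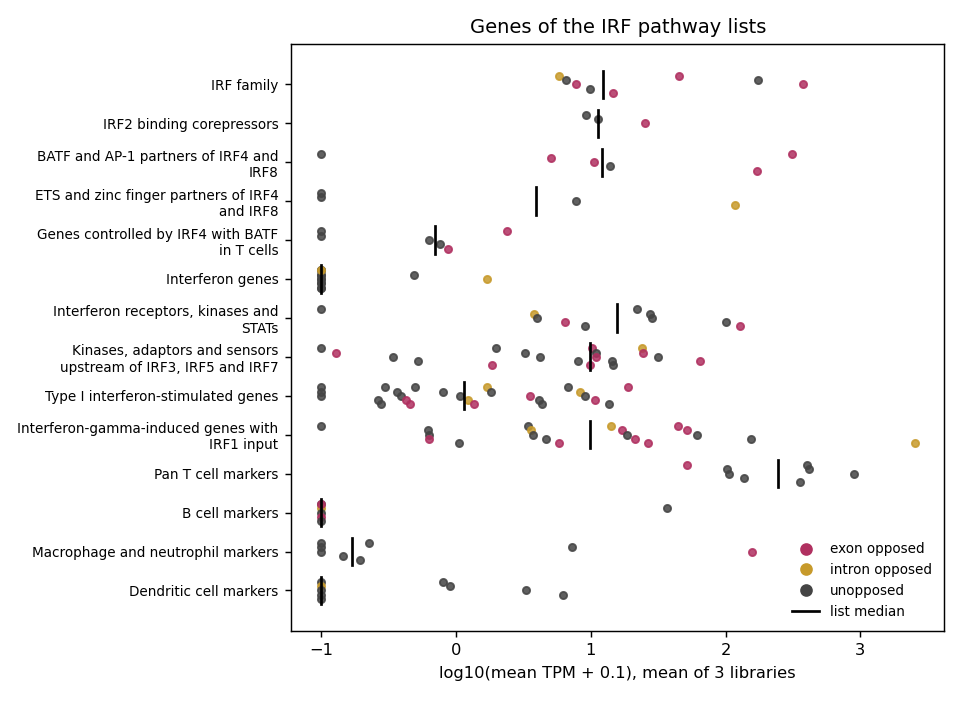
Each point is 1 gene of a list, at log10 of its mean TPM over 3 libraries plus 0.1, coloured by overlap with the other strand, and black bars are list medians. Points at -1 had no count, and the median of the T cell markers lies above those of the other lists.

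Since Irf5 and Irf8 are best known from myeloid and B cells, markers of those cells were read beside them. Of 7 B cell markers 1 was detected, Cd79a, which is unopposed, at 36.4 ± 11.1 TPM. Ms4a1, Cd79b, Pax5, Cd22 and Blk had no count, and the summed level of the list ran from 27.0 to 48.7 TPM. Of 8 macrophage and neutrophil markers 2 were detected, Csf1r at 158 ± 25.3 TPM, opposed by Hmgxb3 at 20.4 ± 9.76 TPM, and the unopposed Cd68 at 7.23 ± 1.39 TPM. Lyz2, S100a8 and S100a9 had no count, and the list summed to 137 to 181 TPM, nearly all of it Csf1r. Of 9 dendritic cell markers 2 were detected, Cd74 at 6.16 ± 0.108 TPM and Xcr1 at 3.21 ± 0.312 TPM, while H2-Ab1 had 0.814 ± 0.541 TPM and Itgax, Flt3, Clec9a, Siglech and Cd209a had no count. That list summed to 10.1 to 11.5 TPM.

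By contrast the pan T cell list had a median of 246 ± 90.4 TPM. It was led by Trac at 897 ± 467 TPM, Cd5 at 419 ± 190 TPM and Lck at 404 ± 154 TPM. Cd4, which is unopposed, had 107 ± 29.3 TPM. Cd3e was lowest at 51.4 ± 17.8 TPM and is opposed by Gm48719 at 5644 ± 1070 TPM. Of 5 CD8 and cytotoxic markers 2 were detected, Prf1 at 9.34 ± 4.15 TPM and Cd8b1 at 6.73 ± 3.36 TPM. Cd8a, which is unopposed, had 2, 1 and 0 counts in replicates 1, 2 and 3, or 0.133 ± 0.126 TPM, and was not detected. Eomes had 0.976 ± 0.313 TPM and Gzmb had no count. Irf5, which is opposed, stood at 374 TPM, in the range of the T cell markers, of which 7 of 8 are unopposed. No count was found for 6 of 7 B cell, 3 of 8 macrophage and neutrophil and 5 of 9 dendritic cell markers, which is not read as absence. Csf1r and Cd79a lay above 10 TPM, and Cd68, Cd74 and Xcr1 were detected below it. The part of such cells in the level of Irf5 or Irf8 was not tested.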

How the data were processed

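Total RNA was sequenced from 3 libraries of Th1 cells. Each library has 1 deposited table of raw gene-level counts. Per the file headers, read pairs aligned in a stranded paired-end mode were counted over exons with featureCounts 1.4.6-p4, requiring both reads of a pair and using strand setting 1, on GENCODE vM13 models of mm10. The values are whole numbers whose totals differ between libraries, and no scaling is recorded.

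TPM and CPM were computed here from the deposited counts and exon lengths. Symbols came from a later GENCODE release and named 50376 of 50600 genes (99.6%), and biotypes came from the same release. Overlaps were found with bedtools 2.31.1. For the spread, edgeR 4.0.16 (R 4.3.3) was fitted with an intercept alone after TMM scaling, on genes kept by filterByExpr at a minimum count of 10, with Benjamini-Hochberg adjustment at 0.05. A deviance test at the trended dispersion and a chi-square test of counts were run, both one-sided with 2 degrees of freedom and both tested on simulated data. DESeq2 1.42.0 was an alternative. Sequences are from RefSeq (GRCm38.p6) and GENCODE transcripts.

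The members and lists were chosen with earlier results of these data known. Named from each list were its 3 highest genes, its lowest and those with no count, at most 4 of these except among the cell type markers, and the 3 genes nearest to the highest Irf gene. Isg15, Ifngr2, Stat2, Tlr3, Tlr7, Cd4 and Cd8a were chosen after values were seen. So were the genes facing list members and the ratio of replicate 1 to the others. Some genes of the lists are not reported here. Intervals are 95% exact binomial (Clopper-Pearson).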

Additional observations from a re-analysis of the deposited data

How the results depend on the processing

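All 8 Irf genes were detected with any library left out, which had to be so, since each passed the rule in every library. The number of neighbours in the order that differed beyond their spread was 3, or 2 without length correction, and 3 to 5 with a library left out, the 5 arising without replicate 1. Without length correction the log2 ratios of Irf1 to Irf8, Irf7 to Irf9 and Irf9 to Irf2 turned to -0.20, -0.19 and -0.33, as the exon lengths within each pair differ. With a library left out, the ratio of Irf8 to Irf7 ranged from -0.13 to 0.51 and that of Irf9 to Irf2 from -0.076 to 0.25, both negative without replicate 1. TPM over unopposed genes alone raised Irf4, Irf8 and Irf9 to 849.9, 46.3 and 31.6 TPM, since fewer genes share the total. Such rescaling could not change their order. All 4 ratios to facing genes kept their sign without length correction. With a library left out no sign could change, since each ratio had the same sign in every library. The number of list entries detected was 84, and 48 when only unopposed genes were kept, where fewer genes entered.

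Beyond the dispersion trend 24 genes varied in the main edgeR fit, 44 with no filter, 55 among unopposed genes fitted alone, and 4 were outliers in DESeq2. With a library left out the number was 3 to 21, at 3 without replicate 2 and 8 without replicate 3. Beyond counting noise 5642 genes varied, and 2476 to 4815 with a library left out, the lowest without replicate 1. Scaled by total count in place of TMM, 7119 genes varied, and Irf1, Irf3 and Irf9 also passed the chi-square test with edgeR library totals (adjusted p of 6.1e-05, 0.000153 and 0.0205), with no call lost among the Irf genes. The cause of these changes was not tested. No paired analysis between groups was possible because there is a single group. Ratios between genes were taken within each library. Depth limits genes at 3 counts or fewer in a library.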
